A study of Mus musculus with 12 samples.

Results

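The genes described here encode the nuclear subunits of mitochondrial oxidative phosphorylation and the small carrier cytochrome c. They were chosen by symbol: names beginning with Ndufa, Ndufb, Ndufc, Ndufs, Ndufv, Uqcr, Cox4, Cox5, Cox6, Cox7, Cox8 or Atp5, plus Sdha, Sdhb, Sdhc, Sdhd, Cyc1 and Cycs. This gave 92 of the 18193 genes named on the array, and 184 of 34945 named probe sets. A gene is represented by its brightest probe set that names 1 gene, which was a choice among up to 6 probe sets for 52 genes and the sole one for 40. The symbol rule also takes in 8 assembly factors of complex I, Ndufaf1 to Ndufaf8, which help to build the complex and are not part of it. Another 8 symbols, Ndufs6 and Ndufa11 among them, were named only on probe sets shared by several genes and were left out.

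RNA came from splenocytes of DBA/2 mice aged 10 weeks cultured for 9 days together with KLN-205, a murine lung line of squamous carcinoma. In all 4 groups the tumour cells had been depleted of SEMA3A (a secreted guidance protein) by knockdown, and interleukin-2 was given at 100 units/mL every 3 days. The control group had no further addition. The SEMA6A group had tumour cells that overexpress the membrane-bound semaphorin SEMA6A, the SEMA3A group received purified SEMA3A protein at 10 µg/mL, and the last group, SEMA6A+SEMA3A, had both. Each group had 3 arrays, 12 in all, and the labels do not say whether these came from separate cultures or animals, whether the tumour cells were removed before extraction, or whether the overexpressing line was 1 clone. P-values therefore measure only the spread between these samples, whose small number limits the precision.

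Oxidative phosphorylation passes electrons from NADH (complex I) and succinate (complex II) through complex III and cytochrome c to oxygen at complex IV, and the proton gradient built on the way drives ATP synthase. Most subunits are encoded in the nucleus, while a few core subunits come from mitochondrial DNA. Activated T cells make new mitochondria as they grow, and several complex IV subunits exist in general, muscle, testis and hypoxia isoforms.

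The cultures gave T cell transcripts at high signal: Cd3d lay between 15896 and 23139 over the 12 arrays, and 6 of 7 T cell markers were bright enough to be tested. Cd4, at 4.01 to 13.0, was not, and neither was any of the 2 B cell or 2 erythroid markers on the array. Of 8 squamous carcinoma markers 5 were tested, and their summed signal was 931 to 1413 in the control group, 987 to 1462 with SEMA6A, 1122 to 1513 with SEMA3A and 963 to 1212 with both. No probe set of Sema6a (0.901 to 44.6) or Sema3a (0.708 to 51.3) passed the filter on dim probe sets in any group, so these arrays do not check the labelled manipulation of the tumour cells. On SEMA6A replicate 2 the signal of the 3' Gapdh control probe set over the 5' one, a measure of RNA integrity, was 1.22, against 0.767 to 0.818 on the other arrays. In RNA from a mixed culture, fewer cells of a type and less RNA per cell cannot be told apart.

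Oxidative phosphorylation genes were measured well above the dim end of the array. Of the 92 genes 88 passed the filter (signal above the median of its array on at least 3 arrays) and were tested, or 95.7%, against 62.2% of all named genes. The median control signal of these 88 was 7364, and that of all 11325 tested genes was 636. Signals of different probe sets do not rank transcript amounts, so the values below serve to compare arrays for 1 gene at a time. Among complex I subunits the control signals (mean ± SD, n = 3) ran from 527 ± 83.7 for Ndufb1 to 15683 ± 699 for Ndufa1, and among complex I assembly factors from 452 ± 27.9 for Ndufaf5 to 3386 ± 325 for Ndufaf4. Complex II ran from 1555 ± 27.2 for Sdhc, a membrane anchor, to 10876 ± 863 for the iron-sulphur subunit Sdhb. Complex III ran from 4810 ± 193 for Uqcr10 to 30548 ± 2294 for Uqcrb, complex IV from 55.8 ± 10.3 for the hypoxia isoform Cox4i2 to 29776 ± 1627 for Cox7a2, and ATP synthase from 2990 ± 860 for Atp5md to 25108 ± 2178 for Atp5g3, a gene of the proton-carrying c ring.

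**Figure D1:**
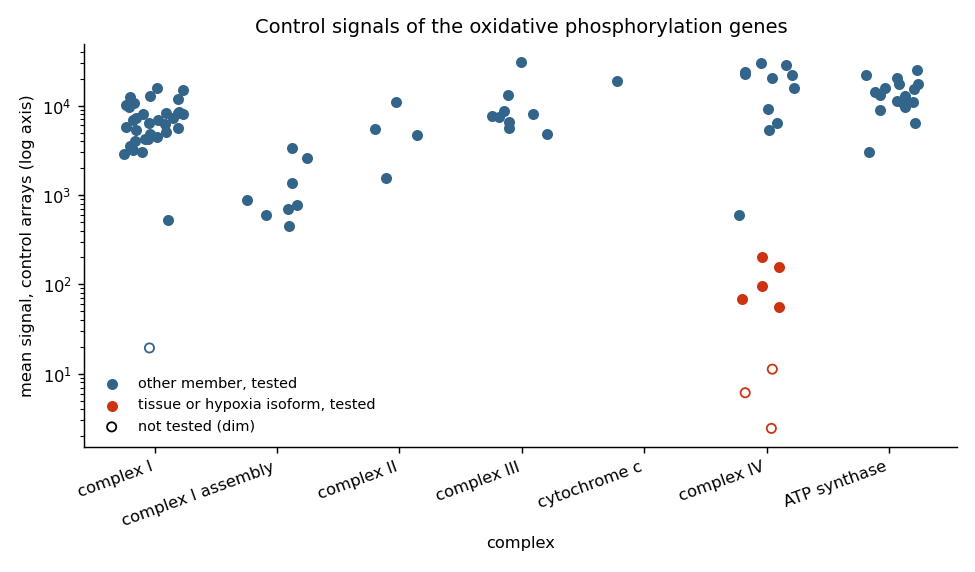
Mean deposited signal in the 3 control arrays (log axis) for each of the 92 genes, by complex; horizontal scatter within a complex carries no meaning. Filled points are the 88 tested genes and open points the 4 that were too dim, and red marks the muscle, testis and hypoxia isoforms, all of which lie below the other complex IV genes.

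The members also varied little between arrays of a group. The median within-group coefficient of variation was 6.33% over the 88 members and 12.03% over all tested genes, and the median standard error of a difference between groups was 0.088 and 0.153 on the log2 scale. By class the median coefficient of variation was 4.79% for complex III, 5.47% for ATP synthase, 5.82% for complex II, 6.88% for complex I and 9.73% for the assembly factors. The 5 tested tissue and hypoxia isoforms of complex IV, which were dim, stood at 25.4%, and its 11 general subunits at 4.17%.

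None of the 88 genes passed the test in any comparison (limma, Benjamini-Hochberg adjusted p under 0.05 over 11325 genes), and neither did any other gene, so that 0% of all genes were called in each of the 6 comparisons. The lowest adjusted p of a member was 0.197. At an unadjusted p under 0.05, SEMA6A against control had 8 members higher (6.53% of all genes) and 1 lower (3.92%), together 9 of 88 beside 10.5% of all genes. SEMA3A against control had 2 higher (4.87% of all genes) and 3 lower (3.87%), beside 8.74% in all. Both factors against control had 4 higher (2.58%) and 1 lower (1.53%), beside 4.11% in all. Both against SEMA3A had 2 higher (5.84%) and 3 lower (5.38%), beside 11.2% in all. Both against SEMA6A had 6 higher (5.21%) and 4 lower (6.3%), beside 11.5% in all. In the interaction, the difference SEMA6A makes in the presence of SEMA3A minus that in its absence, 5 were higher (7.82%) and 7 lower (10.2%), beside 18% in all. The members' totals, 5 to 12 of 88, were near or below these shares of all genes.

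The members' median log2 difference lay between -0.03 and 0.04 in every comparison. It was 0.01 for SEMA6A against control (all genes 0.02), 0.04 for SEMA3A (0.01) and 0.04 for both factors (0.01), and 47, 62 and 58 of the 88 members were above 0, where 53.3%, 51.7% and 53.4% of all genes were. Both factors against SEMA3A gave -0.01 with 40 members above 0 (51.4% of all genes) and 48 below (48.6%), both against SEMA6A gave 0.01 with 46 (49.8%), and the interaction gave -0.03 with 38 (49.5%) and 50 below 0 (50.5%). Without the isoforms and assembly factors, 45, 59 and 50 of 75 members were above 0 against control with SEMA6A, SEMA3A and both. The medians of these 75 were 0.04, 0.05 and 0.03. These comparisons share groups, so their counts are not independent of each other.

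Given the spread between these arrays, the differences of most members had narrow intervals. Like the p-values, the intervals measure only this spread, as the labels do not say whether arrays came from separate cultures or animals. The 95% interval of the difference lay within 1.5-fold either way for 76 of 88 members in SEMA6A against control, where it did so for 60.2% of all genes. It did so for 79 with SEMA3A (63.4%), 80 with both factors (68.9%), 77 for both against SEMA3A (61%) and 76 for both against SEMA6A (59.8%). For the interaction, whose error is larger, 67 members had such an interval, against 32.6% of all genes.

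**Figure D2:**
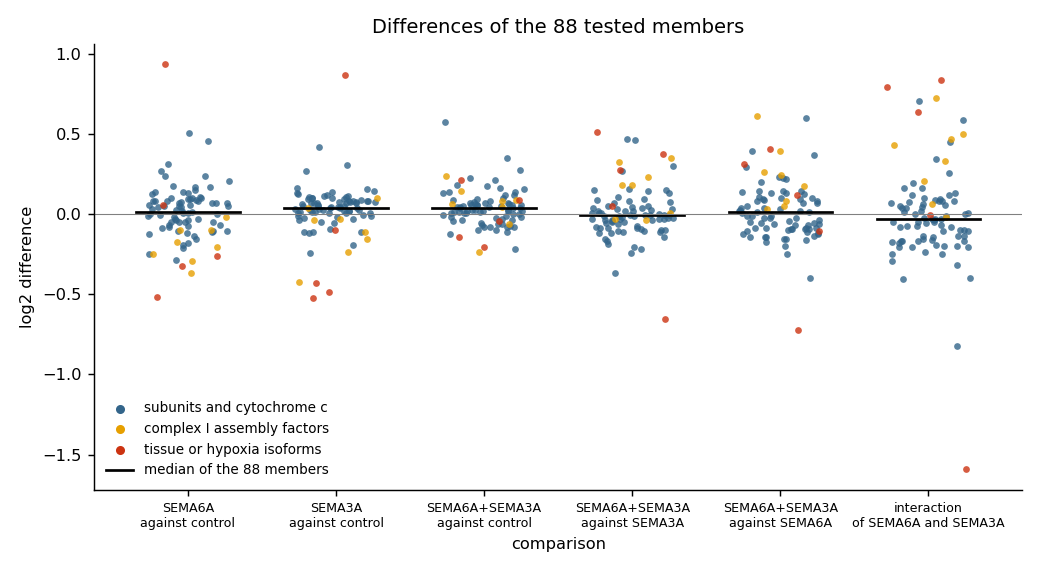
Log2 difference of each of the 88 tested members in the 6 comparisons, with subunits and cytochrome c in blue, complex I assembly factors in yellow and tissue or hypoxia isoforms in red. Black bars mark the members' medians, which lie between -0.03 and 0.04, and none of the points passed the test.

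Complex I, which takes electrons from NADH, had 33 tested subunits. Of these 20 were above 0 in SEMA6A against control, 26 in SEMA3A against control and 26 with both factors against control, with medians of 0.05, 0.06 and 0.05. Ndufs7, the core subunit that holds the last iron-sulphur cluster before ubiquinone, had signals of 4650, 4798 and 4982 in the control arrays and 5283, 5664 and 5293 with SEMA6A. The groups did not overlap, and the log2 difference was 0.18 ± 0.07 (SE, limma adjusted p = 0.475). Ndufa3, an accessory subunit, was at 12907, 11306 and 13732 in the control and 16060, 15221 and 16272 with SEMA3A. Again the groups did not overlap, with a difference of 0.31 ± 0.10 (limma adjusted p = 0.551), while a second Ndufa3 probe set of mean signal 10445 gave 0.13 ± 0.11. Ndufb10, an accessory subunit of the membrane arm, was at 5239, 5043 and 5382 with both factors, above all 9 other arrays, which lay between 4244 and 4793. Its difference from control was 0.22 ± 0.07 and its adjusted p by limma 1.00, since few genes had a small p in that comparison. Groups that do not overlap were also found in other genes. Of the 88 members, all 3 arrays were higher than the control in 9 with SEMA6A (7.36% of all genes), 16 with SEMA3A (9.92%) and 14 with both (8.55%). All 3 were lower in 1 (4.77%), 3 (7.31%) and 5 (6.53%). Against control the members' shares were thus above those of all genes for higher and below them for lower, which was not tested. With both factors, 9 members were higher than SEMA3A without overlap (10.3%) and 15 lower (10.7%), and 9 were higher than SEMA6A (6.75%) and 8 lower (7.31%).

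Ndufa5 and Ndufb1, both accessory subunits, had lower mean signals with 1 factor than with both. Ndufa5 gave 4266, 4276 and 4080 in the control, 3806, 4090 and 3288 with SEMA6A, 3378, 3214 and 4104 with SEMA3A, and 4156, 3954 and 4786 with both. Its interaction was 0.45 ± 0.15 (limma adjusted p = 0.203), and the ranges of all groups touched or overlapped. A second Ndufa5 probe set of mean signal 3242 gave an interaction of 0.25 ± 0.15, and 0.01 for SEMA3A against control where the chosen one gave -0.24. Ndufb1 gave 473, 484 and 623 in the control, 677, 277 and 444 with SEMA6A, 508, 504 and 438 with SEMA3A, and 672, 622 and 691 with both. One SEMA6A array and 1 control array reached the range of both factors, and the interaction of 0.71 ± 0.33 had a limma adjusted p of 0.281. Without SEMA6A replicate 1 it was 1.02 and passed, in a fit where 1286 of 11258 genes passed in the interaction. The sole mitochondrially encoded subunit found by symbol, ND5 of complex I, lay between 3415 and 8160, and its differences from control were 0.04, -0.25 and 0.06 with SEMA6A, SEMA3A and both.

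All 8 complex I assembly factors were below 0 in SEMA6A against control, where 46.7% of all genes were, and all 8 were above 0 in both factors against SEMA6A. Their median differences were -0.19 and 0.21, and none passed the test. Ndufaf2 gave 716, 829 and 767 in the control, 745, 440 and 627 with SEMA6A, 720, 592 and 829 with SEMA3A, and 847, 821 and 1029 with both. The SEMA6A arrays overlapped the control, and all 3 lay below the arrays with both factors, a difference of 0.61 ± 0.18 (limma adjusted p = 0.424). SEMA6A replicate 2 held the lowest of the 12 values for 6 of the 8 assembly factors, with a median deviation of -0.39 from each gene's mean. Without that array 5 of 8 were below 0 in SEMA6A against control, with a median of -0.07, and 5 of 8 above 0 in both against SEMA6A, with a median of 0.06. Without SEMA6A replicate 1 the medians were -0.31 and 0.30. Ndufaf4 gave 3047, 3696 and 3414 in the control and 2111, 2299 and 3250 with SEMA3A, where 1 array reached the control range, with a difference of -0.42 (limma adjusted p = 0.569).

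Complex II, succinate dehydrogenase, also serves the TCA cycle. Its 4 genes were all below 0 in SEMA6A against control (median -0.06) and all above 0 in SEMA3A against control (median 0.10), and none passed the test. Sdhb gave 10936, 9984 and 11707 in the control and 11003, 12389 and 13046 with SEMA3A, overlapping in 1 array, with a difference of 0.14 ± 0.07 (limma adjusted p = 0.591). Against SEMA3A the arrays with both factors, at 10535, 10606 and 10860, lay lower without overlap, by -0.19 ± 0.07 (limma adjusted p = 0.409). The flavoprotein gene Sdha was at 5461 ± 158 in the control, 5084 ± 645 with SEMA6A, 5446 ± 121 with SEMA3A and 5280 ± 103 with both (SD, n = 3). The anchor Sdhc was at 1555 ± 27.2, 1514 ± 241, 1662 ± 88.2 and 1733 ± 38.4, and the other anchor, Sdhd, at 4745 ± 144, 4533 ± 702, 5098 ± 267 and 4836 ± 392. The wide SEMA6A spread of Sdha, Sdhc and Sdhd came with a low value on SEMA6A replicate 2 (4356, 1250 and 3813). Without that array 3 of the 4 genes were above 0 in SEMA6A against control, with a median of 0.02.

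**Figure D3:**
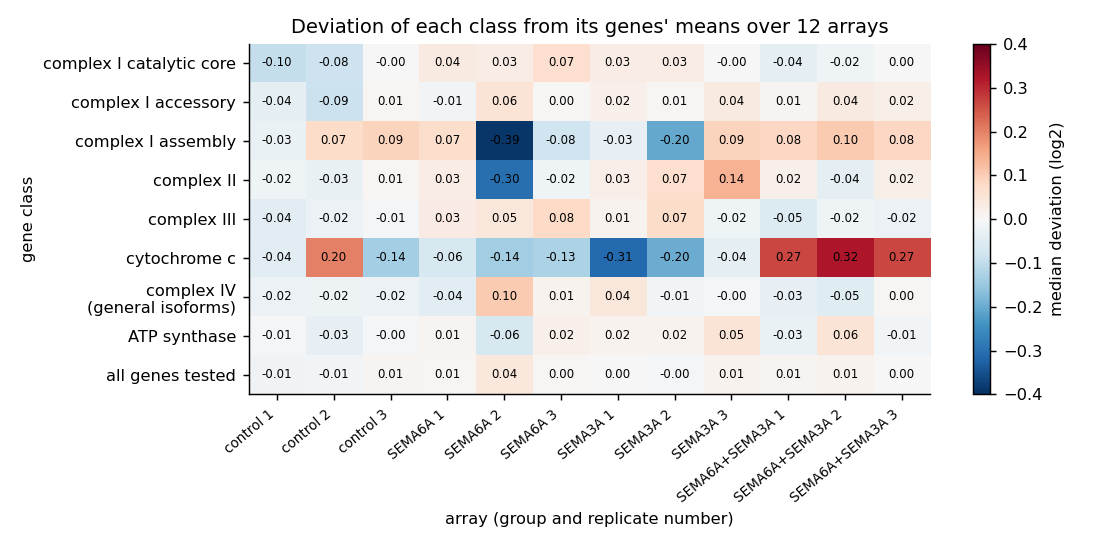
Median deviation of each class of tested genes from its genes' own means over the 12 arrays, in log2 units after normalisation, with 1 column per array and the value printed in each cell. SEMA6A replicate 2 is low in the assembly factors (-0.39) and complex II (-0.30). Cytochrome c, a single gene, is at 0.27 to 0.32 on the 3 arrays with both factors. It is at -0.31 on SEMA3A replicate 1.

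Complex III hands electrons from ubiquinol to cytochrome c. Its 9 genes had 7 above 0 with SEMA6A, 8 with SEMA3A and 3 with both factors against control, with medians of 0.07, 0.05 and -0.02. Cyc1, the cytochrome c1 subunit, was at 7619, 8220 and 8291 in the control, 8857, 8513 and 8716 with SEMA6A, 7876, 8660 and 8542 with SEMA3A and 8312, 7971 and 8432 with both. SEMA6A lay above the control without overlap, but the difference was 0.11 ± 0.06 (limma adjusted p = 0.519). Uqcrfs1, the Rieske iron-sulphur protein, was at 5406, 4753 and 5383 with both factors and 5957, 6400 and 5559 with SEMA3A. These groups did not overlap, and the difference was -0.22 ± 0.09 (limma adjusted p = 0.417). Uqcr10, a small subunit, was 0.18 ± 0.07 above control with both factors, while its other 2 probe sets past the filter gave -0.0076 and -0.015.

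Cycs, the gene of cytochrome c, which carries electrons from complex III to complex IV, had its highest signals in the arrays with both factors. Its signals were 18286, 21048 and 17973 in the control, 18963, 17409 and 17750 with SEMA6A, 15730, 17241 and 18950 with SEMA3A, and 23550, 24748 and 22739 with both. All 3 arrays with both factors were above all 9 others, and the other groups overlapped. On the log2 scale both factors exceeded SEMA3A by 0.47 ± 0.09, SEMA6A by 0.40 ± 0.09 and the control by 0.28 ± 0.09 (SE), that is 1.38-fold, 1.31-fold and 1.21-fold, with limma adjusted p of 0.29, 0.424 and 1.00. SEMA6A and SEMA3A alone were at -0.12 and -0.19 from control. The interaction, 0.59 ± 0.12 with a 95% interval of 0.33 to 0.85, had a limma adjusted p of 0.197, the same as the lowest of any gene in that comparison. It was 0.61 and passed without SEMA6A replicate 1, where 1286 of 11258 genes passed. It was 0.66 and passed without SEMA3A replicate 3, where 281 of 11252 genes did. Over the alternatives its adjusted p ranged from 0.0176 to 0.427. The other 2 Cycs probe sets past the filter had interactions of 0.53 ± 0.26 and 0.57 ± 0.19, differences of 0.20 and 0.39 for both factors against SEMA3A, and smaller ones of 0.06 and 0.14 for both against control.

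The promoters of 75 of the 92 genes were found in RefSeq (GRCm38.p6), as 250 bases before to 50 after the start. They are shown for the 4 members on which most of the account turns, with matches to known regulatory motifs in capitals on either strand. The motifs were GCGCATG, which occurs in sites of the nuclear respiratory factor NRF1, and CCGGAAG, which ETS factors such as GABP bind. ACGTG, a form of the core of hypoxia response elements, was also searched, and other forms were not. In Cycs (chr6:50566520-50566819, minus strand) the window held 1 match to GCGCATG and 2 to ACGTG, and in Cox8a, the general isoform of a small complex IV subunit (chr19:7217567-7217866, minus strand), 2 matches to CCGGAAG.
Cycs promoter: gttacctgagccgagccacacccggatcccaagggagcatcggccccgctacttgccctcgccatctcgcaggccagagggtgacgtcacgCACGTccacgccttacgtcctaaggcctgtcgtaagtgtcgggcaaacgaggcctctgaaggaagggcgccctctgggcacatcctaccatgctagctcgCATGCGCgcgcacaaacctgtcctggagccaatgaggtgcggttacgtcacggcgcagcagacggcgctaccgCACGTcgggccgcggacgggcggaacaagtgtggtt
Cox8a promoter: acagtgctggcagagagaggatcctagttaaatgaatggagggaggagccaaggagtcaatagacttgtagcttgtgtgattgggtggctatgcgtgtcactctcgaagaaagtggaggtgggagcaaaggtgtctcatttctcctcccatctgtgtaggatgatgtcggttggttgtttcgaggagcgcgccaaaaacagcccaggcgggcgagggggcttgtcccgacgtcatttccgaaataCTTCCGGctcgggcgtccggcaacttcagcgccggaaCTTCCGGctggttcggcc
In Cox7a1, a muscle isoform of complex IV (chr7:30183921-30184220, plus strand), and in Ndufv3, an accessory subunit of complex I (chr17:31519865-31520164, plus strand), it held 1 match to ACGTG each.
Cox7a1 promoter: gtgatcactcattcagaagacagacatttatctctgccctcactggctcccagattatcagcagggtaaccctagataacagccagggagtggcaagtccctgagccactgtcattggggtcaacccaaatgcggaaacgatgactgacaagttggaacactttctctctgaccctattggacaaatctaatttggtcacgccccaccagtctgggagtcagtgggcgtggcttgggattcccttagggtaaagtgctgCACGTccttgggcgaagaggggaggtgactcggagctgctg
Ndufv3 promoter: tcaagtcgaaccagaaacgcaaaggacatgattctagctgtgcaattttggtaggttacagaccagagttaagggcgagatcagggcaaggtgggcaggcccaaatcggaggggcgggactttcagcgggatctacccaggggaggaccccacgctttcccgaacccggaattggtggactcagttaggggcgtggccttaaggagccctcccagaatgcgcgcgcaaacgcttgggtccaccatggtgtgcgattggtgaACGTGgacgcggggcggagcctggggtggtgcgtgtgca
GCGCATG was found in 15 of the 75 promoters, in 7.99% of those of tested genes and in 4.41% of all 27025. CCGGAAG was found in 19 (25.3%), in 20.9% and in 9.93% of these sets, and ACGTG in 20 (26.7%), in 29.6% and in 21.8%. A match describes the letters only and shows no binding.

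Complex IV reduces oxygen. Its 11 tested general subunits had 8 above 0 in SEMA6A against control and 8 in SEMA3A against control, while 9 were below 0 in both factors against SEMA6A (50.2% of all genes), with medians of 0.08, 0.03 and -0.09. Cox8a gave 8884, 8831 and 9695 in the control, 9179, 8719 and 8842 with SEMA6A, 9300, 9925 and 9081 with SEMA3A, and 8187, 7981 and 7979 with both. The arrays with both factors were below all 9 others, by -0.22 ± 0.06 against control, -0.24 ± 0.06 against SEMA3A and -0.17 ± 0.06 against SEMA6A (SE), with limma adjusted p of 0.948, 0.402 and 0.424. This rests on the chosen probe set: a second Cox8a probe set of mean signal 7805 gave -0.04, -0.07 and -0.07, and a dim one of mean signal 165 gave 0.22, 0.30 and 0.29. Cox5b, a regulatory subunit, gave 20952, 20848 and 23819 in the control, 23452, 23325 and 24905 with SEMA6A, 24155, 25844 and 23540 with SEMA3A, and 22423, 22025 and 21938 with both. One control array reached the range of the single factors, and the interaction was -0.23 ± 0.07 (limma adjusted p = 0.197). Cox4i1, at 20220 ± 219, 21756 ± 2217, 22041 ± 934 and 20888 ± 247 in the 4 groups (SD, n = 3), and Ndufa4, at 6446 ± 587, 6033 ± 1125, 6576 ± 640 and 6567 ± 434, had intervals that included 0 in every comparison. The general isoforms Cox6a1 (28684 ± 3422, 28991 ± 943, 30844 ± 1685 and 27663 ± 1339), Cox6b1 (22470 ± 925, 24421 ± 2670, 23740 ± 707 and 23714 ± 777) and Cox7a2 (29776 ± 1627, 30959 ± 1989, 31356 ± 269 and 30488 ± 1079) did so too. Cox5a was at 23571 ± 981, 24743 ± 612, 24519 ± 1091 and 24986 ± 984, and Cox7a2l, which helps to join complexes III and IV, at 5321 ± 396, 6488 ± 2401, 5739 ± 697 and 5711 ± 680, with 9236 on SEMA6A replicate 2, and their intervals also included 0.

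**Figure D4:**
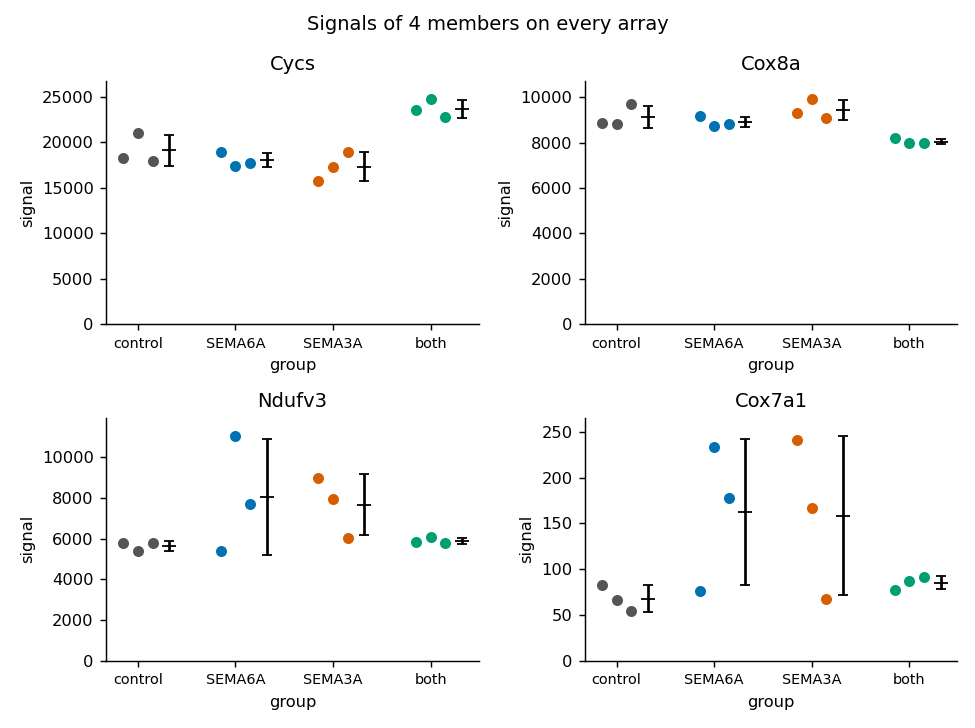
Deposited signal of Cycs, Cox8a, Ndufv3 and Cox7a1 on each of the 12 arrays (linear axes from 0), coloured by group, with the group mean and SD in black beside the 3 points. The arrays with both factors are the highest for Cycs and the lowest for Cox8a, and 2 SEMA6A and 2 SEMA3A arrays are high for Ndufv3 and Cox7a1.

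The tissue and hypoxia isoforms were dim and noisy. Cox8b (muscle, 1.21 to 15.1), Cox7b2 (testis, 0.54 to 15.5) and Ndufa4l2 (hypoxia, 5.93 to 31.4) were never above the median of their array, and together with Ndufb4 of complex I (12.8 to 28.8) they were the 4 members not tested. The highest Cox7b2 values, 15.5, 11.3 and 13.4, were those of the 3 SEMA6A arrays. Cox4i2, the hypoxia isoform of Cox4i1, lay between 5.55 and 75.9, with its lowest value on SEMA3A replicate 1. Cox6a2 (muscle) gave 157 ± 30.3, 125 ± 25.1, 119 ± 45.4 and 170 ± 40.5 in the control, SEMA6A, SEMA3A and both, and Cox8c (testis) 204 ± 34.4, 215 ± 5.56, 191 ± 21.6 and 196 ± 39.7 (SD, n = 3). Cox6b2 (testis) gave 116, 83.5 and 86.9 in the control, 75.5, 51.8 and 64.2 with SEMA6A, 81.9, 48.8 and 70.4 with SEMA3A, and 77.5, 99.8 and 74.2 with both. Every array with a single factor was below every control array, by -0.52 ± 0.22 with SEMA6A and -0.49 ± 0.22 with SEMA3A (limma adjusted p = 0.475 and 0.567).

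**Figure D5:**
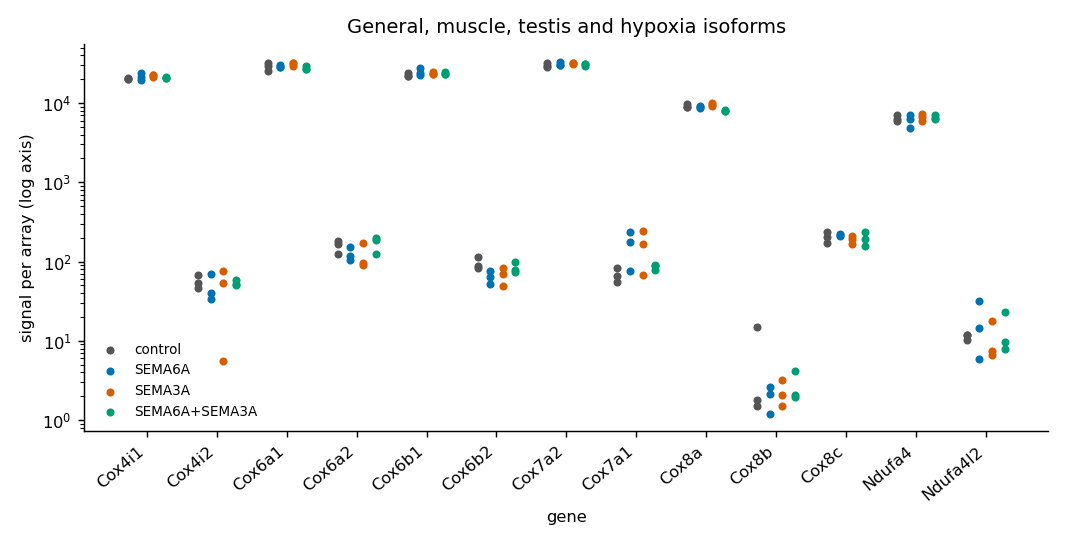
Deposited signal (log axis) on each array for general complex IV subunits and their muscle, testis and hypoxia isoforms, coloured by group in the order control, SEMA6A, SEMA3A and both. The general isoforms form tight groups, and the isoforms scatter widely, with 4 high points for Cox7a1.

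Cox7a1 and Ndufv3 were high on the same 4 arrays. Cox7a1 gave 83.1, 66.1 and 54.4 in the control, 75.9, 233 and 178 with SEMA6A, 241, 167 and 67.4 with SEMA3A, and 77.4, 87.2 and 91.1 with both. Ndufv3 gave 5766, 5375 and 5802, then 5379, 11059 and 7718, then 8992, 7956 and 6032, and 5818, 6066 and 5767 in the same order. In both genes SEMA6A replicates 2 and 3 and SEMA3A replicates 1 and 2 were high, and the remaining array of each group lay within or near the control range. The differences from control were 0.94 ± 0.37 (SEMA6A) and 0.87 ± 0.37 (SEMA3A) for Cox7a1 and 0.46 ± 0.21 and 0.42 ± 0.21 for Ndufv3 (SE), with limma adjusted p between 0.475 and 0.588. Their interactions were -1.59 ± 0.52 and -0.82 ± 0.29 (limma adjusted p = 0.199 and 0.211). Leaving out SEMA6A replicate 1, where both genes were near control, both passed in SEMA6A against control (1.32 and 0.73) and in the interaction (-1.98 and -1.09). In that fit 512 of 11258 genes passed in SEMA6A against control and 1286 in the interaction. Without SEMA3A replicate 3 the interaction of Cox7a1 was -2.02 and also passed, as did 281 of 11252 genes in all. Over the alternatives the adjusted p of SEMA6A against control ranged from 0.0475 to 0.878 for Cox7a1 and from 0.0395 to 0.883 for Ndufv3, and that of the interaction from 0.0214 to 0.427 and from 0.0153 to 0.432.

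The 4 arrays were picked from the Cox7a1 and Ndufv3 values, and the share of all genes higher on them was not counted. Among 7 tested hypoxia-related genes that act on mitochondria or their genes, 5 had all 4 of those arrays above the other 8. The other 2 did not: Hif1a, the hypoxia-inducible factor itself, was at 7303 to 9030 on the 4 arrays and 7727 to 10314 on the rest, and Iscu, an iron-sulphur scaffold, at 1906 to 2040 and 1682 to 2147. Mxi1, an antagonist of Myc, gave 261, 268 and 320 in the control, 353, 1254 and 625 with SEMA6A, 934, 752 and 281 with SEMA3A, and 310, 374 and 270 with both. Bnip3, a mitophagy receptor, lay between 15810 and 17581 on the 4 arrays and between 7921 and 10851 on the other 8. Pdk1, which inhibits pyruvate dehydrogenase, was at 3937, 2918, 3028 and 2537 on them and between 1546 and 2388 elsewhere, and Higd1a, a complex IV modulator, was at 11160 to 13084 and 8348 to 10286. Lonp1, a protease of the mitochondrial matrix, was at 3364 to 4680 and 2426 to 3046. Of the 8 listed genes of this kind 7 were tested, and all 7 were above 0 in SEMA6A against control and below 0 in the interaction, with medians of 0.43 and -0.80. At an unadjusted p under 0.05 there were 5 higher with SEMA6A (6.53% of all genes) and 3 higher with SEMA3A (4.87%). In the interaction 5 were lower (10.2%), and 0 passed the test. The summed signal of the 7 genes was 30579 to 35202 in the control, 37316 to 49164 with SEMA6A, 36301 to 46230 with SEMA3A and 32390 to 35094 with both. Muscle markers, of which 3 of 7 were tested, summed to 379 to 483 in the control, 512 to 537 with SEMA6A, 373 to 570 with SEMA3A and 385 to 427 with both. Krt8 and Krt18, keratins of simple epithelia, were picked from the 8 squamous carcinoma markers after their values were seen. On the 4 arrays they were at 71.6 to 147 and 84.4 to 125. The others had 41.3 to 91.6 and 40.9 to 72.5. The 5 tested markers of that list had 3 above 0 and 2 below in SEMA6A against control. With SEMA3A 4 were above 0 and 1 below, and all 5 were below 0 in both factors against SEMA6A. The summed signals of that list, given above, overlapped between the groups. Cd68 of macrophages was at 298 to 347 on the 4 arrays and 185 to 257 on the others. Csf1r, the other tested macrophage marker, was at 97.3 to 130 on the 4 arrays and overlapped the others, at 73.8 to 136. The 5 macrophage markers, 2 of them tested, summed to 337 to 391 in the control and 395 to 513 with SEMA6A. With SEMA3A they summed to 385 to 529, and with both to 412 to 453. The 3' over 5' signal ratio of the transferrin receptor control was 35.7 and 23.3 on SEMA6A replicates 2 and 3, 17.2 to 18.1 on all 3 SEMA3A arrays and 5.93 to 12.2 on the other 7, and that of pyruvate carboxylase was 15.5 and 10.3 on SEMA6A replicates 2 and 3 and 4.36 to 8.26 on the other 10. The part of other cell types and of RNA quality in the Cox7a1 and Ndufv3 values was not tested.

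ATP synthase, the enzyme that makes ATP from the proton gradient, had 17 tested genes, and 10, 13 and 11 of them were above 0 with SEMA6A, SEMA3A and both against control, with medians of 0.01, 0.04 and 0.02. At an unadjusted p under 0.05 there was 1 gene in 1 of the 6 comparisons: Atp5l, a membrane subunit, in both factors against control. It was at 12090, 12473 and 12092 with both factors and at 10741 to 11680 on the 9 other arrays, with a difference of 0.13 ± 0.06. The c ring is encoded by 3 genes that give the same mature protein. Atp5g1 was at 6318 ± 222, 6254 ± 571, 6429 ± 242 and 6426 ± 221 in the control, SEMA6A, SEMA3A and both (SD, n = 3). Atp5g2 was at 10758 ± 116, 11166 ± 742, 11690 ± 388 and 11868 ± 702, and Atp5g3 at 25108 ± 2178, 24620 ± 1633, 26514 ± 2159 and 24090 ± 803. After normalisation their log2 differences in the 6 comparisons lay between -0.08 and 0.12, and every 95% interval included 0. Atp5md, a small membrane subunit, was at 2766, 3940 and 2265 in the control and 4261, 5263 and 3679 with both factors, with 1 control array inside the range of the other group. The difference of 0.57 ± 0.28 had an interval of -0.04 to 1.18.

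SEMA6A replicate 2 often held an extreme value. It had the highest value for 28 of the 88 members and the lowest for 30, or 65.9%, against 46.3% of all tested genes. Ndufs8, a core iron-sulphur subunit of complex I, was at 12016 there and at 6679 to 8358 on the other 11 arrays. Uqcrh, the hinge protein of complex III, was at 7386 there and at 12267 to 15221 elsewhere, and Ndufs4 was at 1885 there and at 2987 to 3620 elsewhere. Without this array 5 members had an unadjusted p under 0.05 in SEMA6A against control and 6 in both factors against SEMA6A. The share of all genes at that threshold was not counted for this fit, so these counts have no background beside them. In this fit 0 members passed the test.

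Other mitochondrial genes gave no calls either. Of 48 listed assembly factors and regulators of mitochondrial biogenesis 45 were tested and 0 passed in any comparison. At an unadjusted p under 0.05, SEMA6A against control had 1 higher (6.53% of all genes) and 3 lower (3.92%). SEMA3A against control had 0 (4.87%) and 1 (3.87%), and both against control had 2 (2.58%) and 2 (1.53%). Both against SEMA3A had 2 (5.84%) and 3 (5.38%), and both against SEMA6A had 3 (5.21%) and 2 (6.3%). The interaction had 4 higher (7.82%) and 1 lower (10.2%). Among them Sco2, a copper chaperone of complex IV, had an interaction of 0.76 ± 0.27 and Tmem126b, a complex I assembly factor, one of -1.13 ± 0.35 (limma adjusted p = 0.211 and 0.197). Esrra, a nuclear receptor that drives respiratory genes, was 0.46 ± 0.17 above control with both factors, and Tfb2m, a mitochondrial transcription factor, was at -0.38 ± 0.15. Ppargc1a, the coactivator of biogenesis in muscle and fat, lay between 3.40 and 32.9 and was not tested.

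All 15 TCA cycle genes on the array were tested, and 1 had an unadjusted p under 0.05 in SEMA6A against control, Idh3g, a subunit of isocitrate dehydrogenase, at 0.20 ± 0.08 (limma adjusted p = 0.475), which was also at -0.18 ± 0.08 in both factors against SEMA6A. Their medians lay between -0.01 and 0.02 in the 6 comparisons, and 0 passed. The 6 tested carriers and pores of the mitochondrial membranes had 0 genes with an unadjusted p under 0.05 in any comparison. The phosphate carrier Slc25a3 was at 0.07, 0.04 and -0.04 against control with SEMA6A, SEMA3A and both.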

How the data were processed

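RNA of the 12 samples was hybridised to single-colour Affymetrix arrays after biotin labelling of cRNA (6 µg total RNA), per the labels' protocols. The authors deposited 1 intensity for each probe set, computed by MAS5 per the submitters' processing notes, the version not given in the sources used here. Each array's mean, trimmed of 2% at each end, was 500.0 in the deposited intensities. Scanner files were not used here.

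Signals were taken as log2(signal + 16), which understates differences of dim genes, and quantile normalised, since array medians differed 1.26-fold. Signals quoted per array are as deposited. Genes were named from the platform annotation through probe sets with 1 gene. Probe sets above the median of their array on at least 3 arrays were kept (24366), and the brightest per gene was tested (11325 genes). Differences of a gene's other probe sets, given beside the chosen one, came from a separate fit over all 34945 named probe sets. Their standard errors are therefore not from the same fit as those of the chosen probe set. limma 3.58.1 in R 4.3.3 fitted 1 mean per group over all 12 arrays with a trended prior (8 residual and 5.14 prior degrees of freedom), with Benjamini-Hochberg adjustment at 0.05 over all genes. The fit was tested on simulated data.

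The members, lists and tests were chosen with earlier results of these data known. Named members are the isoform pairs, the carriers and complex II, and the highest and lowest control signal per complex. Also named are the 3 of smallest p above and below 0 in each comparison. Of these, 3 differences are given only here. They are Uqcrc1 (-0.10, both against control), Ndufaf8 (0.23, both against SEMA3A) and Ndufaf5 (0.39, both against SEMA6A). A second Ndufaf8 probe set gave -0.16. Ndufs8, Ndufs4, Ndufaf4 and Ndufb1's fitted values, Atp5l, Krt8, Krt18, Cd68, Csf1r, Mxi1, Pdk1, Hif1a, Iscu, Lonp1 and Slc25a3 were chosen after their values were seen. The alternatives were no quantile normalisation, a pseudocount of 1 or 64, a filter at the 75th percentile or none, another probe set per gene, no prior trend, only the arrays compared, a replicate block and leaving out each array.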

Additional observations from a re-analysis of the deposited data

How the results depend on the processing

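In the 10 settings other than leaving out an array, 0 members passed the test in every comparison for which the setting was run. The interaction was not run with only the arrays compared, since it needs all 4 groups. The members' median was 0.064 for SEMA3A against control without quantile normalisation. With the probe set of the largest interquartile range it was 0.013 for both factors against SEMA3A, 0.050 for both against SEMA6A and 0.036 for the interaction, and without probe sets named _x_at or _s_at the interaction's was -0.0060. Leaving out each array in turn, the number of members passing ranged from 0 to 2 for SEMA6A against control, 0 to 4 for both against SEMA6A and 0 to 7 for the interaction, and was 0 elsewhere. The medians ranged from 0.010 to 0.031 for SEMA6A, 0.029 to 0.051 for SEMA3A and 0.021 to 0.045 for both against control, -0.015 to 0.0070 for both against SEMA3A, -0.020 to 0.019 for both against SEMA6A and -0.038 to -0.011 for the interaction. The arrays behind the calls were SEMA6A replicate 1 and SEMA3A replicate 3. Without SEMA6A replicate 1, 2, 4 and 7 members passed in SEMA6A against control, both against SEMA6A and the interaction. Of all 11258 genes in that fit, 512, 381 and 1286 passed. Without SEMA3A replicate 3, 2 members passed in the interaction, Cox7a1 and Cycs, among 281 of 11252 genes. The 7 members in the interaction without SEMA6A replicate 1 were Cox5b, Cox7a1, Cycs, Ndufaf2, Ndufaf6, Ndufb1 and Ndufv3, and the 4 in both against SEMA6A were Cycs, Ndufaf2, Ndufb1 and Ndufv3. Of 47 named differences 40 kept their direction in every setting. With the probe set of the largest interquartile range Cox8a reversed to -0.078 for SEMA3A and 0.22 for both against control, 0.30 for both against SEMA3A, 0.29 for both against SEMA6A and 0.37 for the interaction, Uqcr10 to -0.0076 for both against control and Cox5b to 0.072 for both against SEMA6A. Leaving out 1 array, Cox8a in SEMA3A against control ranged from -0.015 (without SEMA3A replicate 2) to 0.055, and was -0.0025 without control replicate 2. Apart from the change of probe set and of arrays, the cause was not tested. Same-numbered arrays did not deviate together (18 correlations from -0.36 to 0.14, 1 of them over 0.1), and with the replicate number as a block 0 members passed in any comparison, with medians of 0.01, 0.04, 0.04, -0.01, 0.01 and -0.03 in the order above. Signal limits the isoforms: Cox8b, Cox7b2, Ndufa4l2 and Ndufb4 were below the median of every array.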
